A study of Acomys cahirinus and Mus musculus with 6 samples.

Results

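The comparison described here sets spiny mouse ear wounds treated with an ErbB2 inhibitor against spiny mouse ear wounds given the vehicle DMSO, cell type by cell type. Its members are the cells of these 2 libraries that belong to an annotated type with at least 30 cells in each library. They number 25763 of the 39577 cells in the series, 15181 with DMSO and 10582 with the inhibitor, and they fall into 15 of the 17 annotated types. B-cells, with 91 cells against 28, and the type IRS, with 91 against 22, had too few cells with the inhibitor and were left out. Both libraries came from wild-type Acomys cahirinus, from the healing ear punch, and the inhibitor or DMSO was injected from day 12 to day 15. A library from an FGFR1/2/3 inhibitor (4782 cells) and one from an ERK inhibitor (631 cells), injected in the same days, are quoted as levels beside the pair. Each treatment was 1 library, the labels do not say how many animals it held, and the age and sex of the animals were not among the labels.

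ErbB2 is a receptor tyrosine kinase of the epidermal growth factor receptor family that binds no ligand of its own. It signals as the partner of EGFR, ErbB3 or ErbB4, and the ErbB2 and ErbB3 pair responds to neuregulins such as NRG1, feeding the ERK and AKT pathways. In skin the family is known for its part in keratinocyte proliferation and in the hair follicle and sebaceous gland, and neuregulin signalling is known from Schwann cells and heart. The spiny mouse closes an ear punch with new skin, hair follicles, glands and cartilage, so the annotated types include the tissues rebuilt there.

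The DMSO library held 15363 cells and 70058081 UMIs, unique molecular identifiers that count captured RNA molecules, with a median of 3125 per cell. The ErbB2 inhibitor library held 10632 cells and 62542847 UMIs, with a median of 4153. The libraries shared 49 cell barcodes, 0.319% of the DMSO barcodes and 0.461% of the inhibitor barcodes. Counts were summed over the cells of a class and scaled to counts per 1000000 UMIs of that class (CPM), and every gene ratio is the log2 of inhibitor over DMSO CPM with 1 UMI added to each count, so 0 is no difference and 1 is 2-fold higher. Shares of cells are compared as plain ratios, where 1 is no difference. A gene counts as measured in a class from 30 UMIs on, both libraries added, and is called higher or lower at 2-fold or more. A gene near that minimum can enter through 1 library alone, so counts of members or classes favour genes that are high in 1 of them. The 95% interval in brackets covers counting error only, a difference compares 2 libraries and not 2 conditions, and no test was possible with 1 library a side.

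Where a cluster led with more markers of another type than of its own, it is described by its number. So are cluster 6, which led with a tie, and the single clusters of the other mixed types. Hair germ cluster 26 and sebaceous cluster 20 also led with a tie, of 1 marker each, and were kept within their types. Cluster 34, annotated as fibroblasts, led with Edn3, Apod and Myf5. Cluster 38, annotated as dermal sheath and papilla, led with the pericyte and smooth muscle genes Rgs5, Kcnj8, Abcc9 and Myh11. Cluster 7, annotated as circulating monocytes, led with Clec4d, Il1b, Fpr1 and Mcemp1 and with none of the monocyte markers. Cluster 6, annotated as resident macrophages, led with 2 macrophage and 2 dendritic cell markers. Endothelial cluster 17 led with Ccl21a and Mmrn1, genes of lymphatic vessels, beside the arterial genes Gja4 and Sox17, so the 3 endothelial clusters were read apart. This gave 14 classes outside the interfollicular epidermis.

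A measured difference between the libraries touches every class outside the epithelium. Krt5, the keratin of basal keratinocytes, was counted in all 11 such classes, at a level of 26.6 to 64.3% (median 52.7%) of the whole-library Krt5 CPM with DMSO and 11.7 to 39.8% (median 25.6%) with the ErbB2 inhibitor. It was lower with the inhibitor in 11 of 11 classes. With the FGFR inhibitor the range was 7.59 to 50.4% and the median 26.9%. Whole-library Krt5 stood at 10533 CPM with DMSO and 5456 with the ErbB2 inhibitor. RNA of other cells in the droplet takes room from the class's own genes, so the list medians of these 11 classes are given also after subtraction of the library's profile scaled to the Krt5 level, an alternative chosen after seeing the data.

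**Figure D1:**
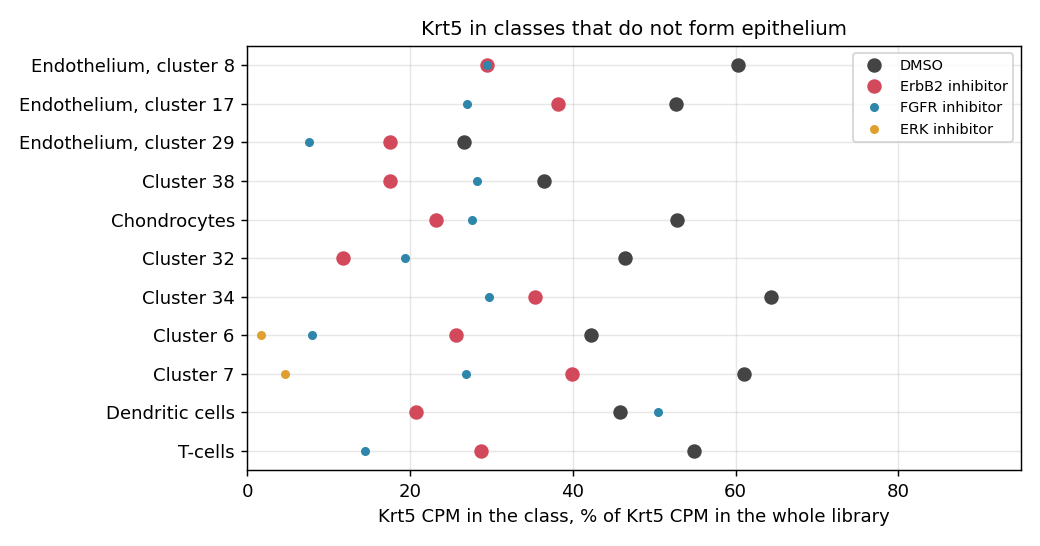
Krt5 CPM in each class outside the epithelium as a percentage of Krt5 CPM in the whole library (horizontal axis), for the libraries with at least 30 cells of the class (points). The DMSO points (26.6 to 64.3%) lie to the right of the ErbB2 inhibitor points (11.7 to 39.8%) in all 11 classes.

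The mix of cell types differed. The inhibitor library had larger shares of suprabasal epidermis, hair germ, sebaceous gland and dendritic cells, and smaller shares of basal and cycling epidermis, the type ORS, chondrocytes, endothelium, macrophages, T-cells and cluster 7, the cells annotated as circulating monocytes. Interfollicular keratinocytes together made up 55.05% of the DMSO library and 53.04% of the inhibitor library, a ratio of 0.963 (0.931 to 0.997). Within them the suprabasal type, the layers that differentiate above the basement membrane, went from 19.5% of cells with DMSO to 29.4% with the ErbB2 inhibitor, against 25.1% with the FGFR inhibitor and 24.2% with the ERK inhibitor, a ratio to DMSO of 1.51 (1.43 to 1.59). The basal type was at 26.2% with DMSO and 18.6% with the ErbB2 inhibitor, a ratio of 0.708 (0.671 to 0.748). The cycling basal type had the smallest ratio of the 15, at 9.3% against 5.02% and 0.54 (0.488 to 0.597). DMSO was the highest of the 4 libraries for both basal types and the lowest for the suprabasal type.

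Single clusters carried much of this difference. Suprabasal cluster 21, which led with the haemoglobin gene Hbb-bs, Alas2 and the cornified envelope genes Lce1b and Lce1f, held 0.97% of cells with DMSO, 6.34% with the ErbB2 inhibitor, 0.46% with the FGFR inhibitor and 0% with the ERK inhibitor, a ratio of 6.54 (5.47 to 7.86). It was large in the ErbB2 inhibitor library alone. Suprabasal cluster 10, which led with Flg, Flg2 and Hrnr of the granular layer, was at 1.65% against 4.94%, with 4.06% and 5.55% in the FGFR and ERK inhibitor libraries, so DMSO was the low one. Basal cluster 11 showed the opposite order, 5.17% with DMSO and 1.71%, 1.65% and 0.317% with the ErbB2, FGFR and ERK inhibitors. Basal cluster 30, which led with the replication genes Rrm2, Mcm4 and Clspn, had a ratio of 0.289 (0.228 to 0.364), and the cycling clusters 19 and 24, led by mitotic genes such as Aurkb and Ccnb1, had 0.409 (0.338 to 0.492) and 0.433 (0.354 to 0.527).

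Among skin appendages, hair germ and outer bulge cells were 6.01% of the DMSO library and 8.86% of the ErbB2 inhibitor library, a ratio of 1.47 (1.35 to 1.62). Their 2 clusters split in the same way in both libraries, 64.03% in cluster 2 with DMSO and 63.9% with the inhibitor. Sebaceous cells numbered 1404 in each library, which is 9.14% and 13.2%, a ratio of 1.44 (1.34 to 1.56). Here the mix did differ, since cluster 4, led by Soat1, Far2 and Pparg, took 32.1% of the sebaceous cells with DMSO and 44.2% with the inhibitor. Cells of the type ORS, a name commonly used for the outer root sheath of the follicle, were at 3.06% against 2.04%, a ratio of 0.667 (0.565 to 0.785), with 3.28% in the FGFR inhibitor library. All 3 inhibitor libraries had more hair germ and sebaceous cells than DMSO, at 7.76% and 8.56% hair germ and 12.7% and 10.5% sebaceous cells with the FGFR and ERK inhibitors.

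In the dermis, endothelium made up 6.36% of cells with DMSO and 4.05% with the ErbB2 inhibitor, a ratio of 0.637 (0.568 to 0.715), and the FGFR and ERK inhibitor libraries stood at 5.02% and 6.97%. Clusters 8 and 29 had ratios of 0.525 (0.434 to 0.633) and 0.535 (0.415 to 0.684), while the interval of cluster 17, 0.868 (0.72 to 1.04), included 1, so its part of the endothelium was 32.04% with DMSO and 43.6% with the inhibitor. Chondrocytes were at 1.94% against 1.28%, a ratio of 0.659 (0.534 to 0.81). The type fibroblasts had 1.93% against 2.58%, a ratio of 1.33 (1.13 to 1.58). Within it cluster 34, which led with none of the fibroblast markers, had a ratio of 1.52 (1.19 to 1.94). The interval of cluster 32, 1.18 (0.926 to 1.49), included 1. Dermal sheath and papilla, with 99 cells against 58, had an interval that included 1, at 0.847 (0.601 to 1.18).

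All immune types together were 8.09% of the DMSO library, 5.31% of the ErbB2 inhibitor library, 8.59% with the FGFR inhibitor and 19.97% with the ERK inhibitor. The ErbB2 inhibitor library was thus the lowest of the 4, with a ratio to DMSO of 0.657 (0.594 to 0.726). T-cells had a ratio of 0.557 (0.451 to 0.685), resident macrophages of 0.619 (0.526 to 0.728) and cluster 7 of 0.656 (0.514 to 0.831). Cluster 45 within the macrophage type, which led with the mast cell proteases Mcpt4 and Cma1, was at 0.612% against 0.273%. Cells annotated as Unknown were 7.19% against 8.88%, a ratio of 1.24 (1.13 to 1.35). Dendritic cells had a ratio above 1, 1.46 (1.08 to 1.98), from 89 cells against 90.

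**Figure D2:**
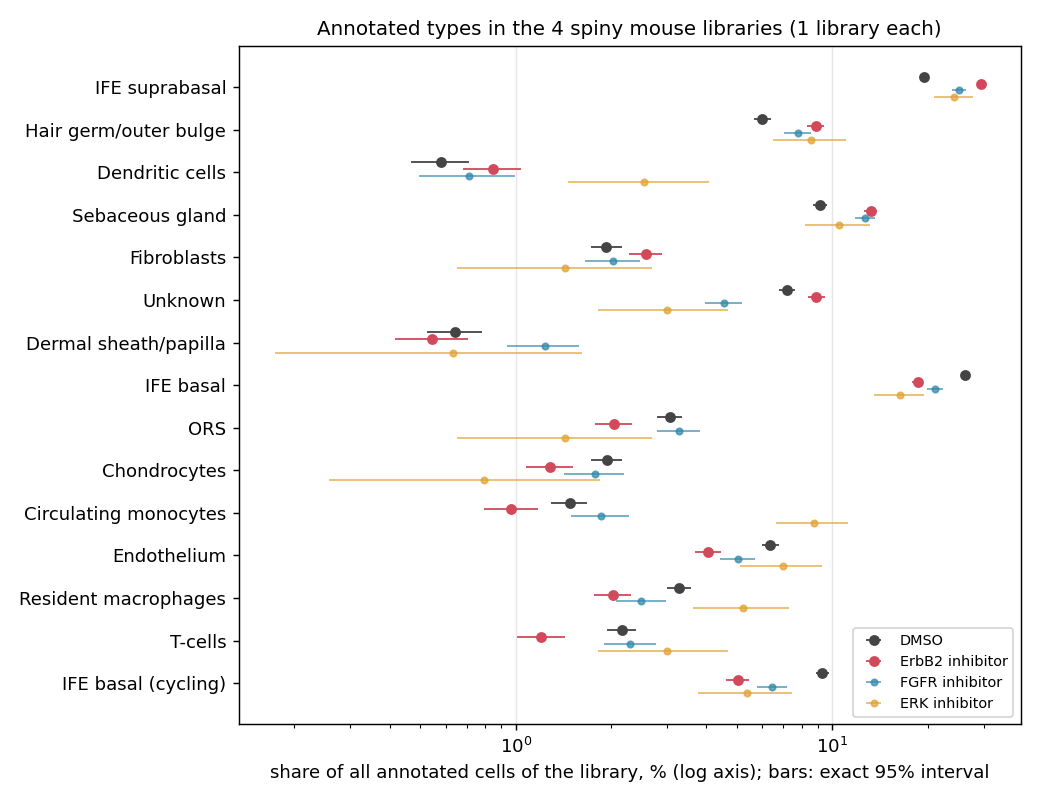
Share of all annotated cells of each library (horizontal log axis, percent) for the 15 types, with exact Clopper-Pearson 95% intervals as bars, in the DMSO, ErbB2 inhibitor, FGFR inhibitor and ERK inhibitor libraries. Suprabasal cells go from 19.5% with DMSO to 29.4% with the ErbB2 inhibitor and endothelium from 6.36% to 4.05%.

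The shares are of cells that survived dissociation and the authors' filters. Counted only over cells with 1000 or more genes, the log2 share ratio grew to −2.001 for cluster 7 (3 cells against 16), 1.29 for dendritic cells and 1.15 for hair germ, and shrank to −0.23 for T-cells, −0.19 for macrophages, −0.18 for ORS, −0.33 for basal cells, 0.43 for suprabasal cells and 0.25 for sebaceous cells. Over the few cells whose own markers outnumbered those of each other type, it turned to the other direction for endothelium (19 cells against 4, 2.78), macrophages (15 against 6, 1.85), chondrocytes (23 against 31, 0.10) and ORS (7 against 10, 0.016).

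Transcripts of the targeted receptor were of like level in both libraries. Over the whole library Erbb2 (mouse gene on chromosome 11, 98412470 to 98437716, build GRCm38, under whose symbol the spiny mouse reads were counted) was at 62.8 CPM with DMSO, 57.1 with the ErbB2 inhibitor, 57.4 with the FGFR inhibitor and 46.6 with the ERK inhibitor. Over the 14 classes together 2.94% of measured genes were higher and 2.86% lower. Erbb2 was measured in 10 of them, was lower in 1 and higher in 0, with a median log2 ratio of −0.23. The class where it was lower was endothelial cluster 8, at 51.3 against 21.7 CPM and a log2 ratio of −1.15 (−2.26 to −0.35), but −0.67 with cells thinned to 1000 UMIs. In the sebaceous gland it was at 50.8 against 35.5 CPM, a log2 ratio of −0.52 (−0.73 to −0.31). Since the inhibitor acts on the kinase, these levels do not check the labels.

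The partner receptor Egfr (chromosome 11, 16752203 to 16918158) was measured in 8 classes, with 1 higher and 0 lower. The higher one was cluster 34, at 55.3 CPM with DMSO, 157 with the ErbB2 inhibitor and 143 with the FGFR inhibitor, a log2 ratio of 1.45 (0.62 to 2.48), and 0.95 with cells thinned to 1000 UMIs. Erbb3 (chromosome 10, 128567523 to 128589652), the receptor that pairs with ErbB2 to bind neuregulin, reached the count minimum in hair germ and sebaceous gland alone. In hair germ it was counted 10 times against 25, a log2 ratio of 1.01 (−0.02 to 2.31), and in the sebaceous gland 69 times against 102, 0.35 (−0.10 to 0.82), both intervals including 0. The ligand gene Nrg1 (chromosome 8, 31814551 to 32884029) was below the count minimum in every class. Its whole-library level was 2.27 CPM with DMSO, 1.17 with the ErbB2 inhibitor and 1.97 with the FGFR inhibitor. In cluster 32 it had 9 UMIs with DMSO and 19 with the inhibitor.

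Readouts of the ERK pathway were below the DMSO level for some genes and not for others. The shares over all measured genes of the 14 classes were 2.94% higher and 2.86% lower. Ccnd1, the cyclin that drives entry into the cell cycle, was measured in 11 classes, lower in 4, higher in 0, with a median log2 ratio of −0.79. Spry2, a feedback inhibitor of receptor signalling, was lower in 2 of 5 classes, with a median log2 ratio of −0.86. Dusp6, the phosphatase that switches ERK off, was lower in 1 of 8, with a median log2 ratio of −0.27, and the transcription factor gene Etv4 in 0 of 4, with a median of 0.02. Mki67, a gene of dividing cells, was lower in 5 of 10, and in 4 of these 5, all but endothelial cluster 29, its level was that of free RNA. Over whole libraries Dusp6 was at 15.7 CPM with DMSO, 9.32 with the ErbB2 inhibitor, 20.9 with the FGFR inhibitor and 6.19 with the ERK inhibitor, while Etv4 was at 18.9, 24.5, 15.1 and 11.2 in the same order.

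A few genes stood higher with the ErbB2 inhibitor in class after class, and they were chosen after their values were seen. Pdk4 (chromosome 6, 5483351 to 5496309), a kinase that shuts pyruvate out of the mitochondrial citric acid cycle, was at 3.1 CPM in the DMSO library, 75 with the ErbB2 inhibitor, 4.77 with the FGFR inhibitor and 29.1 with the ERK inhibitor. The ErbB2 and ERK inhibitor libraries were the high ones. Pdk4 was higher in 5 of the 5 classes where it was measured, with a median log2 ratio of 4.002, and in 10 of 10 interfollicular keratinocyte clusters, where 1.92% of all measured genes were higher and 2.9% lower, with a median of 4.92. Over all measured genes of the 14 classes 2.94% were higher. A class low in both libraries does not reach the count minimum, so these counts of classes were partly set by it. ORS cells met it with 0 UMIs against 32, and endothelial cluster 8 with 5 against 38. In hair germ it was at 5.77 against 255 CPM, a log2 ratio of 5.35 (4.62 to 6.48), and in chondrocytes at 10.6 against 124, 3.45 (2.60 to 4.63).

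Fkbp5, a co-chaperone of steroid receptors, was at 16.4 CPM with DMSO, 54.1 with the ErbB2 inhibitor, 13.5 with the FGFR inhibitor and 44.95 with the ERK inhibitor, and was higher in 9 of 10 classes (median 1.58). The class where it was not called was endothelial cluster 29, at a log2 ratio of 0.52 (−0.56 to 1.42). For Fkbp5 too, classes with few DMSO UMIs met the count minimum through the inhibitor library, such as hair germ with 18 UMIs against 198. Txnip, which binds thioredoxin and restrains glucose uptake, was at 48.1, 152, 64.1 and 169.6 CPM in the same order and was higher in 11 of 14 classes, with ratios from 0.39 in T-cells to 2.48 in hair germ. After subtraction Txnip was short of 2-fold in endothelial cluster 8 (log2 ratio 0.66), cluster 6 (0.84) and cluster 7 (0.60) and below 0 in T-cells (−0.34), and Fkbp5 was short of it in dendritic cells (0.97). The metallothionein gene Mt2, which encodes a metal-binding protein, was at 118, 241, 99 and 580.1 CPM and was higher in 8 of 12 classes. Its ratio was below 0 in cluster 32, at a log2 ratio of −0.76 (−1.31 to −0.25). For Fkbp5, Txnip and Mt2 the DMSO and FGFR inhibitor libraries were low and the ErbB2 and ERK inhibitor libraries high.

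The same order held over whole libraries for Tsc22d3, a leucine zipper gene, at 2.13, 9.16, 4.26 and 11.4 CPM, for the zinc finger gene Zbtb16, at 1.23, 4.37, 1.85 and 5.65, and for Klf15, a transcription factor of fasting metabolism, at 0.999, 4.27, 0.536 and 5.92. The glutamine synthetase gene Glul had 9.68, 27.04, 10.8 and 24.8 CPM, and Il1r2, a decoy receptor that takes up interleukin 1, had 95.4, 309, 145 and 285. Fam13a was at 0.856, 7.4, 0.953 and 2.69 CPM, highest with the ErbB2 inhibitor, and the ERK inhibitor library lay between it and DMSO. These levels are over all cells and move with the mix of types as well as with the level per cell.

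**Figure D3:**
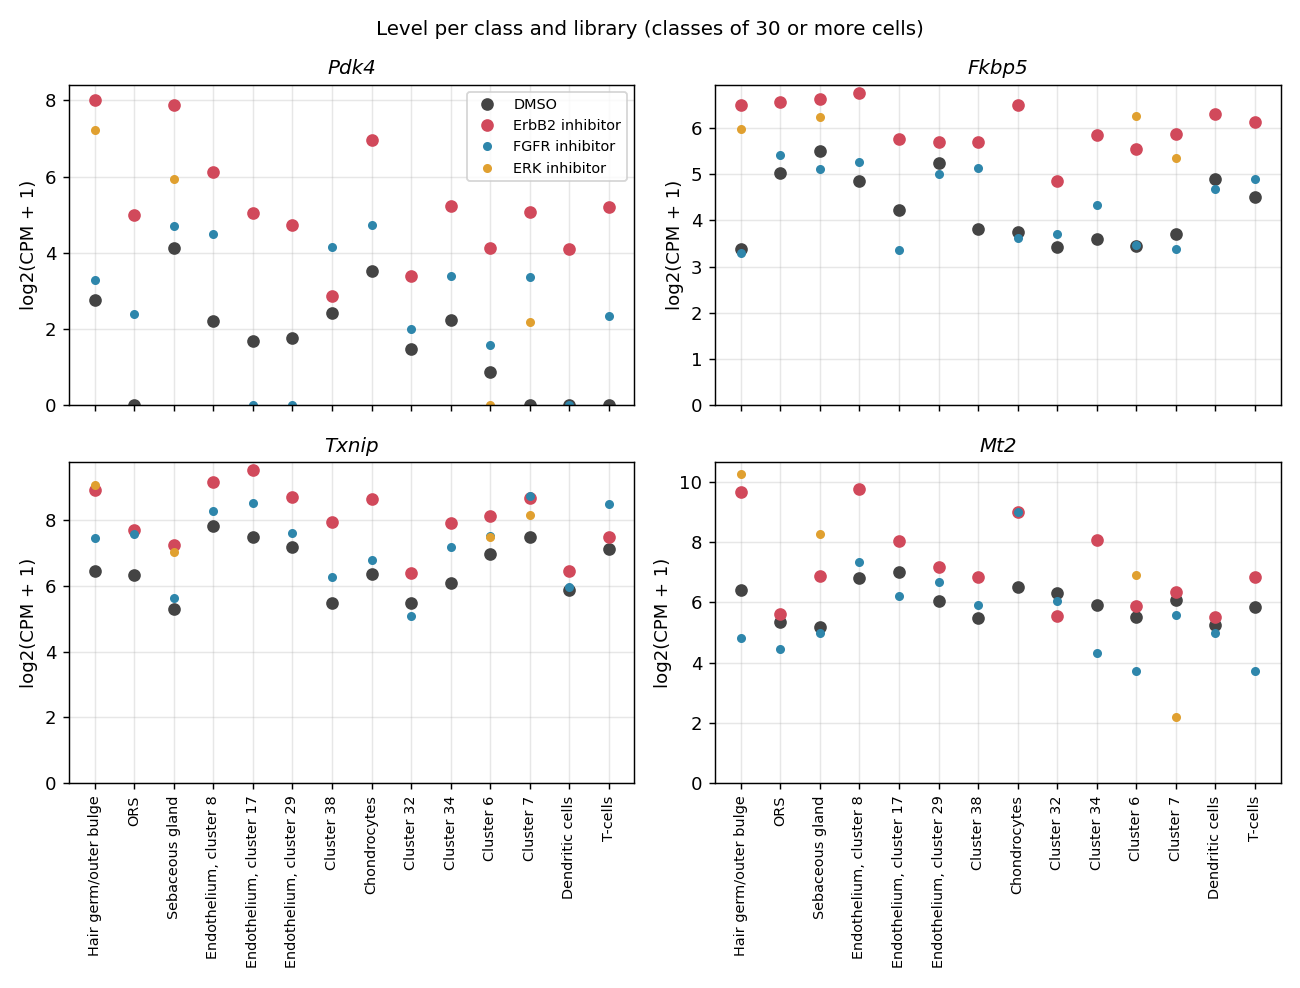
Level of Pdk4, Fkbp5, Txnip and Mt2, as log2(CPM + 1), in the 14 classes (horizontal axis) and the spiny mouse libraries with at least 30 cells of the class (points). For Pdk4 the ErbB2 inhibitor point is above the DMSO point in every class drawn, while for Mt2 it is below it in cluster 32.

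Some genes stood lower across classes. Calr, the calcium-binding chaperone of the endoplasmic reticulum, was at 500.1 CPM with DMSO and 249.8, 219 and 227 with the ErbB2, FGFR and ERK inhibitors, so the DMSO library was the one that stood apart. It was lower in 11 of 14 classes, with a median log2 ratio of −1.31. The inner root sheath keratin Krt71 was at 345 CPM with DMSO, 1.89 with the ErbB2 inhibitor, 79.5 with the FGFR inhibitor and 66.8 with the ERK inhibitor, and Tchh, the trichohyalin gene of the same layer, at 573, 11.9, 41.8 and 271. Tchh was lower in 14 of 14 classes and Krt71 in 11 of 11, in immune and endothelial classes too. Over the 14 classes together 2.86% of measured genes were lower. The whole libraries held 24189 Krt71 UMIs with DMSO and 118 with the ErbB2 inhibitor, and 40114 against 745 of Tchh. Classes therefore met the count minimum for these genes mostly through DMSO, and the counts of classes repeat the difference between the libraries. The type IRS, which led with Krt86, Krt83 and Krt33a, had a share of 0.592% with DMSO and 0.207% with the inhibitor. Cluster 3, annotated as Unknown, led with Krt25, Krt71 and Tchh and was at 5.1% with DMSO and 5.14% with the inhibitor. What part these cells or free RNA had in those ratios was not tested.

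Hair germ and outer bulge cells, which hold the follicle's stem cells and its early progenitors, had 6 of 12 genes of the bone morphogenetic protein (BMP) and TGF-beta pathways higher and 1 of 17 identity genes. Over all 7500 measured genes 3.83% were higher and 2.11% lower, and the median log2 ratio was 0.05. Of 17 measured bulge and germ genes 1 was higher and 0 lower, with a median log2 ratio of −0.10. Sox9, a transcription factor of follicle stem cells, was at 383 CPM with DMSO, 357 with the ErbB2 inhibitor, 408 with the FGFR inhibitor and 433 with the ERK inhibitor, a log2 ratio of −0.10 (−0.25 to 0.04). Lgr5, the receptor that marks cycling follicle stem cells, was at a log2 ratio of 0.17 (−0.13 to 0.47), Lhx2, a transcription factor that keeps them undifferentiated, at −0.26 (−0.43 to −0.10), and the bulge keratin Krt15 at −0.18 (−0.23 to −0.14). The member called higher was Dkk3, a Dickkopf family member, at 118 against 241 CPM, and was short of 2-fold with TMM scaling (log2 ratio 0.98). The list median was 0.037 with cells thinned to 1000 UMIs.

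Of 12 BMP and TGF-beta genes 6 were higher and 0 lower in hair germ, with a median log2 ratio of 0.95. The ligand Bmp2 (chromosome 2, 133552159 to 133562885) was at 26.2 CPM with DMSO, 108 with the ErbB2 inhibitor, 32.1 with the FGFR inhibitor and 111 with the ERK inhibitor, a log2 ratio of 2.02 (1.60 to 2.51). Ccn2 (chromosome 10, 24595442 to 24598683), a matrix-bound growth factor modulator, was at 547, 1849.5, 1075 and 1772 CPM in the same order, a log2 ratio of 1.76 (1.66 to 1.86). For both genes the ErbB2 and ERK inhibitor libraries were the high ones. The direct BMP targets Id1, Id2 and Id3, which block basic helix-loop-helix factors, were at a log2 ratio of 1.004 (0.82 to 1.19), 1.16 (0.95 to 1.38) and 1.10 (0.98 to 1.21). With TMM scaling Id1 was at 0.95, short of 2-fold, as was Skil, a brake on SMAD signalling, at 0.97. Skil was otherwise at a log2 ratio of 1.02 (0.54 to 1.55), while the ligand gene Tgfb1 was at −0.90 (−1.62 to −0.23) and Ccn1 at −0.57 (−1.09 to −0.07).

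Replication genes in hair germ had 4 of 14 members lower and 0 higher, with a median log2 ratio of −0.69. Mcm5 and Mcm2, subunits of the replicative helicase, had 31 UMIs against 10, a log2 ratio of −1.78 (−3.06 to −0.80), and 46 against 20, −1.40 (−2.27 to −0.65), the latter −0.74 with cells thinned to 1000 UMIs. Ccnd1 was at 292 against 169 CPM, a log2 ratio of −0.79 (−0.98 to −0.60), with 389.5 in the FGFR inhibitor library and 173 in the ERK inhibitor library. None of 15 measured sterol synthesis genes was called, and their median log2 ratio was −0.44. The 10 ERK feedback genes had a median log2 ratio of −0.02 with 0 higher and 0 lower, among them Dusp6 at a log2 ratio of −0.42 (−1.12 to 0.26), Spry2 at −0.09 (−0.49 to 0.32) and Etv4 at −0.03 (−0.39 to 0.33). Of 8 ErbB receptors, ligands and regulators 1 was higher, Erbb3, and their median log2 ratio was 0.25. With cells thinned to 1000 UMIs that median was −0.018 and Erbb3 was at 0.68, short of 2-fold.

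The rule for naming genes gave as highest in hair germ Pdk4, Mt2, at 83.4 against 815 CPM, Fkbp5, at a log2 ratio of 3.15 (2.53 to 4.01), Fam13a, at 2.78 (2.14 to 3.65), Klf15, at 2.68 (1.96 to 3.68), and Glul, at 2.55 (1.88 to 3.45). The lowest were Ccer2, with 1003 UMIs against 6, and the platelet chemokine gene Pf4, with 198 against 9. A single cell gave 37.5% of the Ccer2 UMIs and 40.4% of the Pf4 UMIs of the DMSO library, so these ratios rest on few cells. Calr was at 399.7 CPM with DMSO and 139.5, 167 and 155 with the ErbB2, FGFR and ERK inhibitors. S100a3, a calcium-binding protein of the hair shaft, was at a log2 ratio of −1.48 (−1.79 to −1.19).

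Cells of the type ORS led with genes of the upper follicle and infundibulum, Klk10, Gata6, Krt79, Cst6 and Krt17, and 4 of 10 basal epidermis genes and none of 7 upper follicle genes were lower with the inhibitor. Over 5899 measured genes 1.75% were higher and 2.34% lower. Of 10 basal epidermis genes 4 were lower and 0 higher, with a median log2 ratio of −0.65. Krt14, the keratin that pairs with Krt5, was at 1274 CPM with DMSO, 523 with the ErbB2 inhibitor and 564 with the FGFR inhibitor, and Krt5 at 6162, 2590.5 and 2922. In both genes the DMSO library stood apart from the inhibitor libraries, beside whole-library Krt5 levels of 10533 CPM with DMSO and 5456 with the ErbB2 inhibitor, of which the ORS levels were 58.5% and 47.5%. Itgb4 and Lamb3, which anchor basal cells to the basement membrane, were at a log2 ratio of −1.38 (−2.13 to −0.76) and −1.54 (−2.80 to −0.65), and Trp63, the master transcription factor of basal cells, was at 0.58 (−0.06 to 1.23) with an interval that included 0.

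The 7 upper follicle genes had 0 higher and 0 lower, with a median log2 ratio of 0.19. The protease inhibitor gene Cst6 was at 8595 against 9834 CPM, the infundibular keratin Krt79 at 7382 against 8491, and the transcription factor gene Gata6 at a log2 ratio of 0.77 (0.32 to 1.24). Spry2 had 38 UMIs against 9, a log2 ratio of −1.38 (−2.73 to −0.42), and was the member called lower among 6 ERK feedback genes, whose median log2 ratio was −0.19. The ErbB list of 8 genes had none called and a median log2 ratio of −0.04. Highest by the rule were Cyp4b1, a cytochrome P450, at a log2 ratio of 1.94 (1.38 to 2.58), and Il1r2, at 306 against 923 CPM. Pdk4 was at 0 UMIs with DMSO and 32 with the inhibitor, at least 15.95-fold higher. The lowest were inner root sheath genes such as Krt25, with 1761 UMIs against 1, and Wfdc2, a secreted protease inhibitor, with 173 against 2; 1 cell gave 21.4% and 39.3% of the DMSO UMIs of these 2 genes.

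The sebaceous gland, whose cells fill with lipid and burst to release sebum, had the fewest genes past 2-fold of the 14 classes by share, 1.06% higher and 2.1% lower of 9225. It was also the class with the most UMIs, 8424636 with DMSO and 9752403 with the ErbB2 inhibitor. Counting error is smaller there, and the classes were not compared at equal UMIs. None of 27 lipid synthesis and droplet genes was called, and their median log2 ratio was 0.14 (range −0.62 to 0.59). Among its members Fasn, the fatty acid synthase, was at 1325 CPM with DMSO, 961 with the ErbB2 inhibitor, 1413 with the FGFR inhibitor and 1180.2 with the ERK inhibitor, a log2 ratio of −0.46 (−0.50 to −0.42). Acly, which makes cytosolic acetyl-CoA, was at a log2 ratio of −0.62 (−0.67 to −0.57) and Acaca, the acetyl-CoA carboxylase, at −0.55 (−0.69 to −0.41). Other members lay above 0 and likewise short of 2-fold, with the wax synthase Awat2 at a log2 ratio of 0.35 (0.24 to 0.46), Awat1 at 0.26 (0.20 to 0.32), the sterol acyltransferase Soat1 at 0.28 (0.22 to 0.34), Elovl4, which makes very long fatty acids, at 0.44 (0.36 to 0.51), and the droplet protein Cidea at 0.24 (0.21 to 0.27). Pparg, the transcription factor that drives sebocyte differentiation, was at 178 CPM in both libraries.

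Of 20 sterol synthesis genes 1 was lower, Nsdhl, at 32.8 against 16.1 CPM and a log2 ratio of −1.02 (−1.32 to −0.74), against −0.54 in cells led by their own markers, and the median log2 ratio was −0.30, with 2 members above 0. Hmgcs1 and Idi1, early enzymes of the mevalonate pathway, were at a log2 ratio of −0.71 (−0.84 to −0.58) and −0.68 (−0.82 to −0.54). With the clusters weighted to the DMSO mix all these lists stayed on the same side of 0. The ERK feedback list had 12 members, none called, and a median log2 ratio of −0.30; Spry2 was at 45.9 against 25.3 CPM, a log2 ratio of −0.86 (−1.10 to −0.62). The 11 ErbB genes had a median log2 ratio of −0.25 and none called.

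Highest by the rule in sebaceous cells was Fam13a, with 5 UMIs against 105, then Pdk4, at 16.4 CPM with DMSO, 234 with the ErbB2 inhibitor, 25 with the FGFR inhibitor and 59.9 with the ERK inhibitor. Wfdc17, a secreted protein of the whey acidic family, was at a log2 ratio of 3.40 (2.73 to 4.35), against 0.34 in the cells led by their own markers (73 with the inhibitor and 35 with DMSO), and Tnfrsf11a, the receptor RANK, at 2.42 (1.69 to 3.43). Lowest were Pf4, 569 UMIs against 14, Lce3b of the cornified envelope, 144 against 9, and the neutrophil-attracting chemokine Cxcl5, 80 against 22 (log2 ratio −0.93 with cells thinned to 1000 UMIs). The alarmin gene Il33 was at a log2 ratio of −1.44 (−2.03 to −0.91) and the chemokine gene Ccl20 at 1.08 (0.85 to 1.32).

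In endothelial cluster 8, which led with the venous genes Ackr1, Sele and Selp, 3 of 17 endothelial identity genes were higher, and the direction of the list medians depended on the free RNA correction. Here 2.73% of 5814 genes were higher and 3.3% lower, and Krt5 was at 60.3% of the library level with DMSO and 29.5% with the inhibitor. Of 17 identity genes 3 were higher and 0 lower, with a median log2 ratio of 0.40 that was −0.34 after subtraction. Of 9 venous and leukocyte adhesion genes 3 were higher and 0 lower, with 0.49 before and −0.24 after. Pecam1, an adhesion protein of endothelial junctions, was at a log2 ratio of 0.46 (0.17 to 0.74) and −0.28 after subtraction, and the selectin genes Sele and Selp, which capture leukocytes, were at −0.0011 (−0.42 to 0.38) and −0.28 (−0.69 to 0.09).

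Among the genes far from 0 in cluster 8, Cldn5, Gpihbp1 and Fabp4 kept their direction after subtraction. Cldn5 (chromosome 16, 18776847 to 18778262), the claudin of endothelial tight junctions, was at 38.1 CPM with DMSO, 339.9 with the ErbB2 inhibitor and 69.7 with the FGFR inhibitor, a log2 ratio of 3.14 (2.71 to 3.63); 1 cell gave 28.7% of the inhibitor UMIs. Gpihbp1, which anchors lipoprotein lipase to capillaries, was at 43.3, 222 and 53.6 CPM, a log2 ratio of 2.35 (1.90 to 2.83), and Fabp4, a fatty acid carrier, at 4553, 12953 and 7043, 1.51 (1.46 to 1.56). The ErbB2 inhibitor library was high for these 3 genes and the FGFR inhibitor library lay between it and DMSO. After subtraction their log2 ratios were 3.31, 1.70 and 0.77. Timp4, an inhibitor of metalloproteinases, was at a log2 ratio of 2.64 (2.38 to 2.91), Icam1 and Icam2, ligands of leukocyte integrins, at 1.05 (0.66 to 1.44) and 1.38 (0.81 to 1.96), and Cdh5, the cadherin of endothelial junctions, at 1.38 (0.80 to 1.97). After subtraction Icam1, Icam2 and Cdh5 stood at log2 ratios of 0.33, 0.79 and 0.68, below 2-fold.

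Lower in cluster 8 was Ccnd1, at 198 against 81.4 CPM, a log2 ratio of −1.26 (−1.77 to −0.82), and Rgcc, a regulator of the cell cycle, lay just short of 2-fold, at −0.999 (−1.56 to −0.53); after subtraction their log2 ratios were −1.70 and −2.04. Of 6 ERK feedback genes 3 were lower and 0 higher, with a median log2 ratio of −0.40 and −0.95 after subtraction. Dusp6 had 55 UMIs against 10, a log2 ratio of −1.05 (−2.30 to −0.17), and 80.4 CPM with the FGFR inhibitor, the highest of the 3 libraries. The mitosis list had 8 of 10 lower, but 8 of the 10 were at the level of free RNA, and the median log2 ratio of −1.89 turned to 0.91 after subtraction.

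Endothelial cluster 17, with lymphatic and arterial genes, had 3.08% of 3438 genes higher and 2.88% lower, and Krt5 at 52.7% against 38.2%. Cldn5 was at 2949.5 CPM with DMSO, 7829 with the ErbB2 inhibitor and 4487 with the FGFR inhibitor, a log2 ratio of 1.41 (1.31 to 1.51), and was the 1 identity gene of 14 called higher. The lymphatic chemokine Ccl21a was at 1396, 2757 and 5885 CPM, with both inhibitor libraries above DMSO, and the lymphatic transcription factor Prox1 had 18 UMIs against 23, a log2 ratio of 1.02 (0.09 to 2.02) and 0.65 after subtraction. The identity median log2 ratio of 0.16 turned to −0.19 after subtraction. Of 8 sprouting genes 2 were lower, Col4a1 and Col4a2, the chains of basement membrane collagen, at a log2 ratio of −1.13 (−1.82 to −0.56) and −1.504 (−2.29 to −0.88), and the median log2 ratio was −0.48 (−0.81 after subtraction). Highest by the rule were Txnip, at a log2 ratio of 2.05 (1.69 to 2.45), Klf6, at 1.98 (1.64 to 2.35), the interferon gamma receptor gene Ifngr1, at 1.83 (1.45 to 2.25), and Agt, the angiotensin precursor, at 1.78 (1.30 to 2.31). Lowest were the mast cell protease Mcpt4, with 213 UMIs against 7 of which 1 DMSO cell gave 62.4%, S100a9, a calprotectin subunit, at a log2 ratio of −1.76 (−2.56 to −1.14), and Calr, at −1.73 (−2.31 to −1.25).

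Cluster 29 led with Esm1 and Kdr, genes of sprouting vessels, and its list medians lay close before and after the subtraction, with Krt5 at 26.6% against 17.5%, the lowest DMSO value of the 11 classes. It had 3.08% of 4480 genes higher and 2.63% lower. Of 7 arterial and capillary genes 3 were higher and 0 lower, with a median log2 ratio of 0.98 and 1.002 after subtraction. Cldn5 was at 400.0 CPM with DMSO, 1631 with the ErbB2 inhibitor and 1219 with the FGFR inhibitor, a log2 ratio of 2.03 (1.82 to 2.24). Fabp4 was at 617, 2449.8 and 832 CPM, a log2 ratio of 1.99 (1.82 to 2.16), Cd36, a fatty acid receptor, at 52.2, 188 and 89.02, 1.85 (1.24 to 2.46), and Gpihbp1 at 350.2, 783 and 523, 1.16 (0.90 to 1.42). The ErbB2 inhibitor library was the highest for all 4 genes. Cldn5 and Fabp4 were therefore at least 2-fold above DMSO in clusters 8 and 29, and Cldn5 in cluster 17 too, all without the subtraction.

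Sprouting genes in cluster 29 had 1 of 13 higher and 1 lower, with a median log2 ratio of 0.05 (−0.09 after subtraction). Angpt2, which loosens vessels for sprouting, was at a log2 ratio of 1.15 (0.48 to 1.78). It was at 0.99 after subtraction and 0.85 with means over cells, and 1 cell gave 27.8% of its inhibitor UMIs. The growth factor gene Pgf had 40 UMIs against 2, a log2 ratio of −2.16 (−5.81 to −0.76), with 73.5 CPM in the FGFR inhibitor library and −0.93 with cells thinned to 1000 UMIs. The receptor Kdr was at a log2 ratio of −0.36 (−0.77 to 0.01), Esm1 at 0.44 (−0.05 to 0.89) and Aplnr at −0.26 (−0.72 to 0.15), and the intervals of these 3 included 0. Col4a1 was at a log2 ratio of 0.63 (0.53 to 0.73), opposite in sign to cluster 17, a difference that was not tested. Robo4, which stabilises vessels, was at a log2 ratio of 1.20 (0.48 to 1.88) and Ccnd1 at −1.03 (−1.53 to −0.61). With cells thinned to 1000 UMIs Robo4 was at 0.88, and without the deepest 5% of cells Ccnd1 was at −0.81. Clec3b was highest by the rule, with 6 UMIs against 44, of which 1 cell gave 50%.

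Cluster 38, the mural cells that wrap vessels, had 99 cells against 58, 3.68% of 2063 genes higher and 2.52% lower. Of 13 mural and contractile genes 2 were higher and 0 lower, with a median log2 ratio of 0.24 (−0.13 after subtraction, −0.12 with every cell thinned to 1000 UMIs). The 2 were Kcnj8, a pericyte potassium channel, at 525 CPM with DMSO, 1283 with the ErbB2 inhibitor and 787 with the FGFR inhibitor, a log2 ratio of 1.29 (0.96 to 1.63), and Pdgfrb, the receptor that recruits pericytes, at 2234, 4529.7 and 3013, 1.02 (0.85 to 1.19). The contractile genes Acta2, a smooth muscle actin, and Tagln were at a log2 ratio of −0.36 (−0.53 to −0.20) and −0.47 (−0.65 to −0.29). Kcnj8 and Pdgfrb thus lay above DMSO and Acta2 and Tagln below it, and after subtraction Kcnj8, Pdgfrb and Acta2 were at log2 ratios of 0.92, 0.65 and −0.73. Pdgfrb was short of 2-fold also with TMM scaling (0.97) and with cells thinned to 1000 UMIs (0.83). A single inhibitor cell gave 24.3% of the Acta2 UMIs, and a single one 18.9% of the Tagln UMIs. Krt5 was at 36.4% of the library level against 17.5%.

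Chondrocytes, the cells that build ear cartilage, numbered 298 with DMSO and 136 with the inhibitor, and 4 of 11 BMP and TGF-beta genes were higher there. Of 5284 genes 3.05% were higher and 3.99% lower, with Krt5 at 52.8% against 23.2%. Of 11 BMP and TGF-beta genes 4 were higher and 0 lower, with a median log2 ratio of 0.88 and 0.38 after subtraction. Ccn2 was at 1734 CPM with DMSO, 6271 with the ErbB2 inhibitor and 3992 with the FGFR inhibitor, a log2 ratio of 1.85 (1.77 to 1.94), with both inhibitors above DMSO, and 1.22 after subtraction. Id3 was at a log2 ratio of 1.18 (0.99 to 1.37), Id2 at 1.09 (0.47 to 1.69) and Ccn1 at 1.20 (0.78 to 1.63) and 0.78 after subtraction, and Bmp2, with an interval above 0 but short of 2-fold, at 0.88 (0.30 to 1.45). Hair germ and chondrocytes both had Ccn2, Id2 and Id3 at least 2-fold above DMSO, and cluster 34 had Id1 and Id3, all without the subtraction, after which Id3 in chondrocytes was at 0.74 and in cluster 34 at 2.09. Id2 in chondrocytes was short of 2-fold with means over cells (log2 ratio 0.80) and without the deepest 5% of cells (0.87).

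Cartilage matrix genes had 1 of 20 higher and 0 lower, with a median log2 ratio of 0.38 that was −0.24 after subtraction, so their direction depended on it. Col2a1, the main cartilage collagen, was at 819 CPM with DMSO, 706 with the ErbB2 inhibitor and 592 with the FGFR inhibitor, a log2 ratio of −0.21 (−0.40 to −0.03). Acan, the large cartilage proteoglycan, was at a log2 ratio of 0.32 (0.14 to 0.50), the proteoglycan Snorc at 0.32 (0.22 to 0.41), Comp, a matrix glycoprotein, at 0.71 (0.50 to 0.91), and Sox9, the transcription factor that specifies cartilage, at 0.15 (−0.09 to 0.37). The 8 chondrogenic regulators had a median log2 ratio of 0.37 and −0.25 after subtraction. Fibrillar matrix genes were split, with 2 higher and 3 lower of 19 and a median log2 ratio of 0.20 (−0.37 after subtraction). The dermal collagen Col1a1 was at 194 against 88.8 CPM, a log2 ratio of −1.10 (−1.65 to −0.64), and the proteoglycan gene Dcn at 0.87 (0.77 to 0.97). Col1a1 was short of 2-fold with cells thinned to 1000 UMIs (−0.90), with means over cells (−0.88) and without the deepest 5% of cells (−0.98). After subtraction it was at −1.81.

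Of 12 mitosis genes in chondrocytes 9 were lower and 0 higher, with a median log2 ratio of −1.58 (−1.64 after subtraction), and 3 of them were at the level of free RNA. Ccnb2, a mitotic cyclin, had 79 UMIs against 3, a log2 ratio of −3.15 (−5.85 to −1.94), Ube2c, which helps destroy it, 63 against 2, and Cdk1, its kinase, 64 against 3. A single DMSO cell gave 20.3% of the Ccnb2, 42.9% of the Ube2c and 32.8% of the Cdk1 UMIs. These genes met the count minimum through the DMSO library, which held 1042014 UMIs in this class against 461480 with the inhibitor. The minimum thus favoured members high with DMSO, and the count of lower members carries that limit. The FGFR inhibitor library was also low, with Ccnb2 at 0 CPM and Cdk1 at 14.2 CPM, where DMSO had 75.8 and 61.4. Of 12 sterol synthesis genes 3 were lower and 0 higher, with a median log2 ratio of −0.68 (−0.78 after subtraction). The 3 were Hmgcs1 at a log2 ratio of −1.66 (−3.20 to −0.69), Idi1 at −1.56 (−2.98 to −0.64) and Cyp51 at −1.09 (−1.82 to −0.51). Thinned to 1000 UMIs a cell, the log2 ratio of Idi1 was −0.10 and that of Cyp51 −0.78. Highest by the rule were Angptl7, at 71.98 CPM with DMSO, 438 with the ErbB2 inhibitor and 425 with the FGFR inhibitor, Mt2, at a log2 ratio of 2.48 (2.14 to 2.85), the transcription factor Ebf1, at 2.06 (1.54 to 2.63), and the iron carrier Trf, at 1.93 (1.70 to 2.17).

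S100a1, a calcium-binding protein of cartilage and muscle, was at 228 UMIs in DMSO chondrocytes and 0 in ErbB2 inhibitor chondrocytes, at least 33.7-fold lower, while the FGFR inhibitor chondrocytes had 422 CPM against 219 with DMSO. Over the whole ErbB2 inhibitor library it had 0 UMIs, against 436 with DMSO, 328 with the FGFR inhibitor and 22 with the ERK inhibitor. The gene was thus at 0 in every type of the ErbB2 inhibitor library and counted in the other 3 libraries. How its spiny mouse reads map to the mouse symbol was not tested, so the 0 may not be a level of expression.

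**Figure D4:**
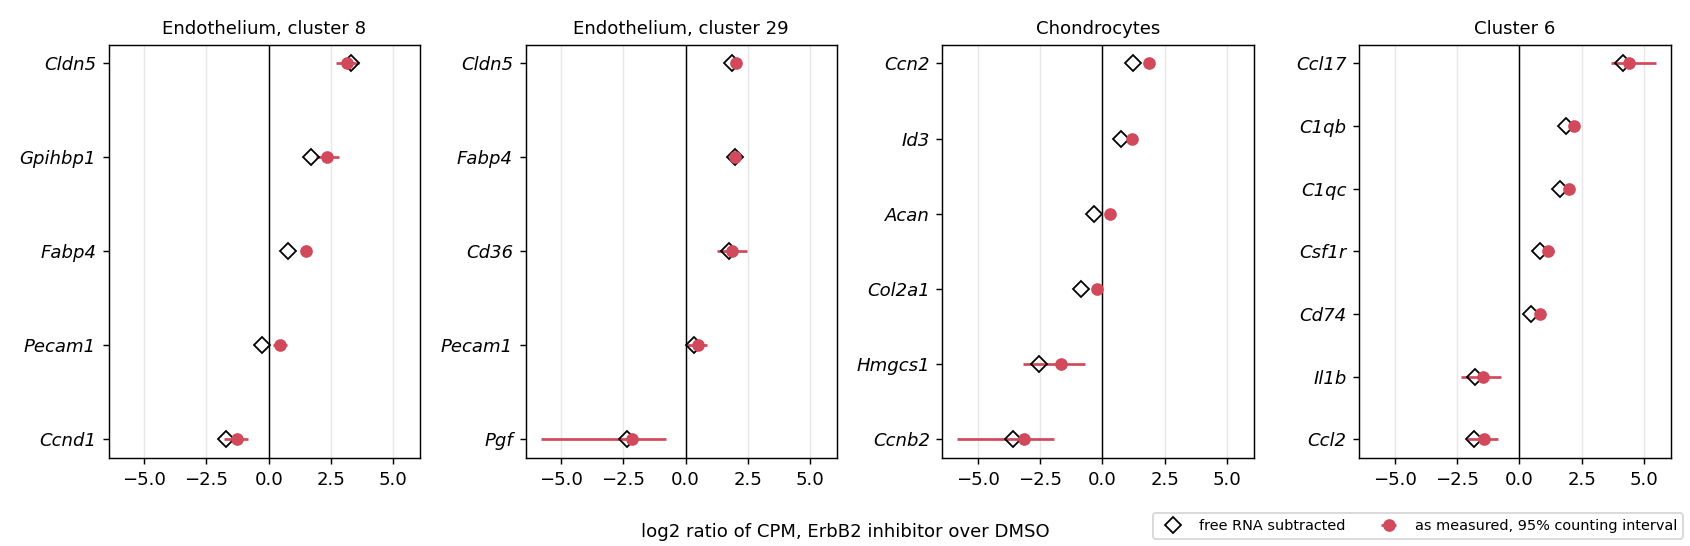
Log2 ratio of CPM, ErbB2 inhibitor over DMSO, for named genes in endothelial clusters 8 and 29, chondrocytes and cluster 6 (filled points with 95% counting intervals), and the same after subtraction of free RNA (open diamonds). Pecam1 in cluster 8 and Acan in chondrocytes cross 0 after subtraction, while Cldn5, Ccn2 and C1qb stay above 0 and Ccnb2 and Il1b below it.

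The type fibroblasts held 2 clusters. In cluster 32, which led with Crabp1, Lum and Col5a1 and had the largest gap in Krt5, 46.4% of the library level against 11.7%, 2.49% of 6100 genes were higher and 2.92% lower. Of 10 imprinted genes of fetal growth 4 were higher and 0 lower, with a median log2 ratio of 0.53 (0.10 after subtraction). The growth factor Igf2 was at 31.9 CPM with DMSO, 98.8 with the ErbB2 inhibitor and 41.8 with the FGFR inhibitor, and Mest at 21.3, 70 and 50.7, though its log2 ratio was 0.49 with cells thinned to 1000 UMIs. The circadian transcription factor Dbp was at a log2 ratio of −2.40 (−3.33 to −1.70). Msmp was counted 1233 times against 2, and nearly all of the DMSO count came from 1 cell.

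Cluster 34 had 4.88% of 2542 genes higher and 2.56% lower, with Krt5 at 64.3% against 35.3%, the highest DMSO value of the 11 classes. Of 6 BMP and TGF-beta genes 3 were higher and 0 lower, with a median log2 ratio of 1.36 (0.97 after subtraction). Id3 was at 262 CPM with DMSO, 1276 with the ErbB2 inhibitor and 506 with the FGFR inhibitor, a log2 ratio of 2.27 (1.91 to 2.68). Id1 was at a log2 ratio of 2.27 (1.498 to 3.29), and the ligand Bmp4 had 14 UMIs against 55, 2.03 (1.24 to 3.07). All 15 measured fibrillar matrix genes were above 0, 1 of them past 2-fold, Col5a2 at a log2 ratio of 1.56 (1.12 to 2.05) and 0.84 after subtraction, but their median log2 ratio of 0.64 was 0.02 after subtraction. Pf4 was highest by the rule, with 4 UMIs against 120, and 1 cell gave 83.3% of its UMIs with the inhibitor.

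Cluster 6, the larger of the macrophage-annotated clusters (410 cells against 187), had 2 functional lists on opposite sides of DMSO, with 9 of 15 complement and tissue macrophage genes higher and 3 of 6 cytokine genes lower and 1 higher. Of 5696 genes 3.83% were higher and 3.39% lower, with Krt5 at 42.2% against 25.6%. Of 15 complement and tissue macrophage genes 9 were higher and 0 lower, with a median log2 ratio of 1.17 and 0.86 after subtraction. C1qb (chromosome 4, 136880129 to 136886187), a chain of the complement component C1q, was at 319 CPM with DMSO, 1472 with the ErbB2 inhibitor, 1428 with the FGFR inhibitor and 60.8 with the ERK inhibitor, a log2 ratio of 2.20 (2.04 to 2.37). The ErbB2 and FGFR inhibitor libraries were the high ones. C1qa and C1qc, the other chains, were at a log2 ratio of 2.06 (1.84 to 2.28) and 1.98 (1.83 to 2.14), Trem2, a receptor for lipids and debris, at 1.59 (1.07 to 2.15), the lysosomal proteases Ctsd and Lgmn at 1.53 (1.32 to 1.74) and 1.57 (1.34 to 1.81), and Csf1r, the growth factor receptor of macrophages, at 1.17 (0.96 to 1.38). After subtraction C1qb was at 1.85 and Csf1r, now short of 2-fold, at 0.82. Apoe, a lipid carrier, was at a log2 ratio of 0.21 (0.13 to 0.29) and short of 2-fold.

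Of 7 MHC class II genes 1 was called, H2-Ab1, in the same cells, and the median log2 ratio was 0.80 (0.46 after subtraction). The invariant chain Cd74 was at 14758 CPM with DMSO, 26270.2 with the ErbB2 inhibitor, 24934 with the FGFR inhibitor and 11355 with the ERK inhibitor, and H2-Aa at 4936, 8619, 9495 and 4052. Of 11 dendritic and Langerhans genes 3 were higher and 0 lower, with a median log2 ratio of 0.49 (0.15 after subtraction). The Langerhans lectin Cd207 was at a log2 ratio of 1.06 (0.70 to 1.42) and 0.71 after subtraction, with 38.1% of its DMSO and 26.5% of its inhibitor UMIs in 1 cell, and the dendritic lectin Cd209a at 0.16 (−0.05 to 0.36).

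Of 6 cytokines and chemokines measured in cluster 6 3 were lower and 1 higher, with a median log2 ratio of −0.97 (−0.98 after subtraction). Ccl2, which recruits monocytes, was at 109.8 CPM with DMSO, 39.8 with the ErbB2 inhibitor, 96.7 with the FGFR inhibitor and 41.4 with the ERK inhibitor, a log2 ratio of −1.42 (−2.10 to −0.88). The cytokine Il1b was at 66.3, 23.3, 113 and 475 CPM, a log2 ratio of −1.44 (−2.36 to −0.74), with the ErbB2 inhibitor library the lowest of the 4. Ccl7 had 27 UMIs against 6, and the member called higher was Ccl8, at a log2 ratio of 1.29 (1.02 to 1.56). Of 11 immediate early genes 3 were lower and 0 higher, with a median log2 ratio of −0.40 (−0.69 after subtraction). The 3 were Nr4a1 at a log2 ratio of −1.75 (−2.69 to −1.05), Fosb at −1.74 (−2.86 to −0.95) and Zfp36, which degrades cytokine messages, at −1.005 (−1.44 to −0.62). The chemokine Ccl17 was highest by the rule, with 12 UMIs against 164, of which 1 cell gave 75% and 51.2%.

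Cluster 7 expressed S100a8 and S100a9, the calprotectin subunits of neutrophils and monocytes, and had 6.12% of 1977 genes higher and 5.31% lower, the largest share of the 14 classes. It held only 332713 UMIs with DMSO and 122879 with the ErbB2 inhibitor, and shares were not compared at equal UMIs. Of 11 neutrophil genes 3 were higher and 0 lower, with a median log2 ratio of 0.82 that was 0.25 after subtraction. S100a8 was at 22725 CPM with DMSO, 42074 with the ErbB2 inhibitor, 44120.3 with the FGFR inhibitor and 205969 with the ERK inhibitor, beside Krt5 levels of 60.98%, 39.8%, 26.8% and 4.62% of the library. S100a8 and Krt5 stood in opposite order over the 4 libraries, and after subtraction the log2 ratio of S100a8 was 0.30, from 0.89 before. Hp, the haptoglobin gene, was at a log2 ratio of 1.96 (1.52 to 2.41), Ifngr1 at 2.01 (1.62 to 2.41), the decoy receptor Il1r2 at 1.35 (0.92 to 1.77) and 0.80 after subtraction and Il1b at −0.26 (−0.58 to 0.03).

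Dendritic cells (89 against 90) led with Ccr7, the receptor that guides them to lymph nodes, and had 3.34% of 2363 genes higher and 2.71% lower. Of 6 MHC class II genes 2 were higher and 0 lower, with a median log2 ratio of 0.77 (0.35 after subtraction). H2-Aa was at 2100.4 CPM with DMSO, 4921 with the ErbB2 inhibitor and 3641 with the FGFR inhibitor, a log2 ratio of 1.23 (1.08 to 1.38), and Cd74 at 0.99 (0.93 to 1.06). After subtraction both were short of 2-fold, H2-Aa at 0.78 and Cd74 at 0.53. Of 8 dendritic genes none was called, with a median log2 ratio of 0.38 that was −0.04 after subtraction; Ccr7 itself was at a log2 ratio of 0.39 (0.16 to 0.63). The lectin Mgl2 was at a log2 ratio of 1.65 (1.07 to 2.35) and the actin-capping gene Capg at 2.14 (1.14 to 3.69). Krt5 was at 45.8% of the library level against 20.7%.

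T-cells (332 against 128) had 3.18% of 3681 genes higher and 3.37% lower, and Krt5 at 54.9% against 28.7%. None of 8 receptor complex genes was called, and their median log2 ratio of 0.50 was −0.14 after subtraction. Cd3e, a signalling chain of the receptor, was at 1012 CPM with DMSO, 1483 with the ErbB2 inhibitor and 1606 with the FGFR inhibitor. Of 7 cytotoxic genes 1 was higher, Cd8b1 with 13 UMIs against 19, and the median log2 ratio of 0.13 turned to −0.50 after subtraction. Cd8b1 was then at 0.86, short of 2-fold, and the granzyme gene Gzma was at a log2 ratio of −0.27 (−0.43 to −0.11). Of 5 regulatory genes 1 was higher, the costimulator Icos, at a log2 ratio of 1.35 (0.73 to 2.003), with a median log2 ratio of 0.75 (0.13 after subtraction, with Icos at 0.72 and no member past 2-fold). Gzmn was highest by the rule, with 32 UMIs against 146, and 1 cell gave 80.1% of its UMIs with the inhibitor.

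**Figure D5:**
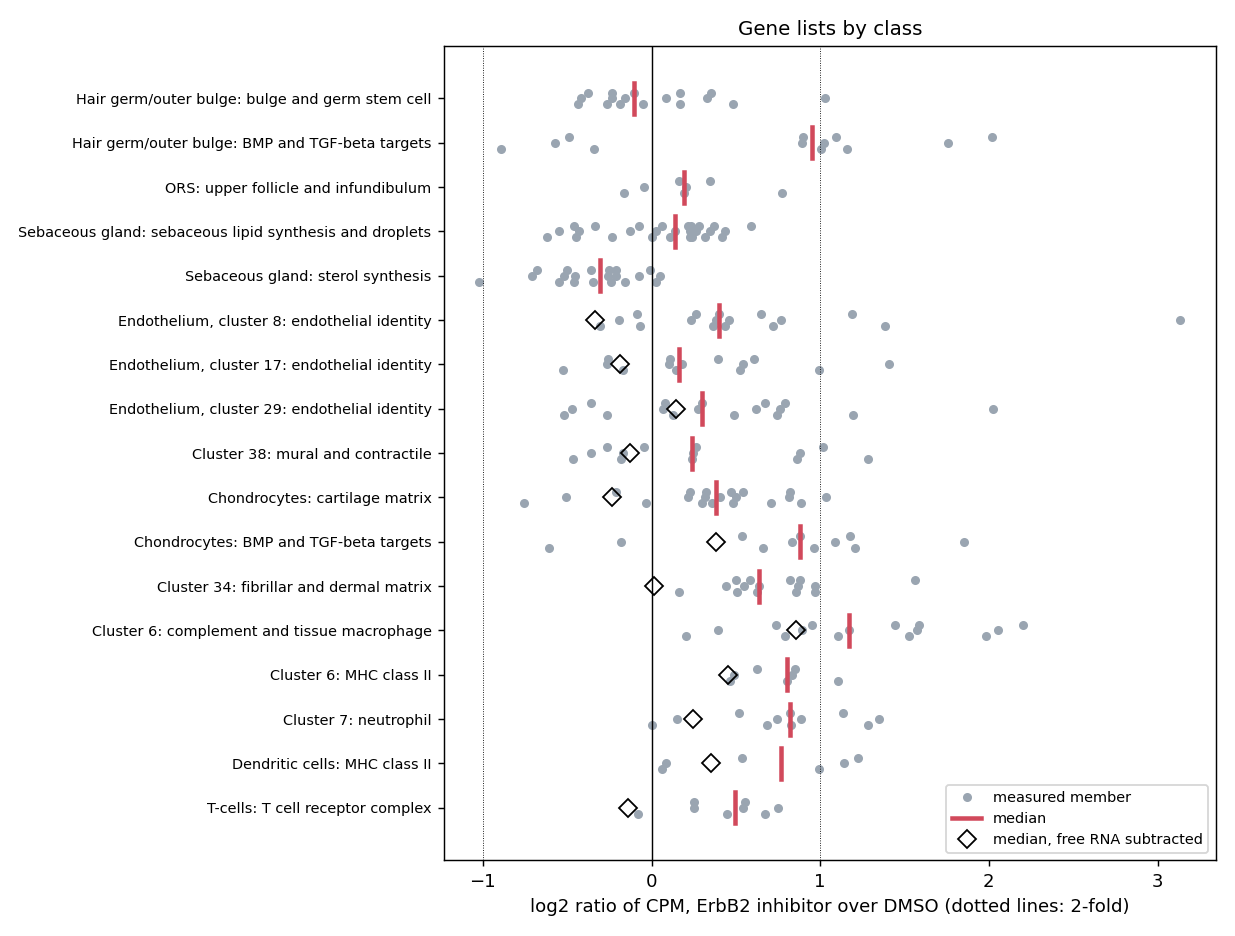
Log2 ratio of CPM, ErbB2 inhibitor over DMSO (horizontal axis), of each measured member (grey points) of 17 gene lists read in the classes, with the median (red bar) and, outside the epithelium, the median after subtraction of free RNA (open diamond). The complement list of cluster 6 (median 1.17, 0.86 after subtraction) stays above 0, whereas the cartilage matrix, T cell receptor and cluster 8 endothelial identity lists cross it.

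Inside the clusters of the interfollicular epidermis the differentiation genes lay on both sides of the DMSO level, and basal and mitotic genes mostly below it. Over 18 keratinocyte clusters the median of the differentiation list was above 0 in 10 and below 0 in 8, from −0.57 to 0.57, and the basal list was below 0 in 16. The mitosis list was below 0 in 15 of the 17 clusters where it was read, from −2.63 to 0.09. ERK feedback genes were below 0 in 12 of 16 clusters, and the ErbB list was above 0 in 7 and below 0 in 7 of 14. Erbb2 was called in none of the 18 clusters, and Egfr in none of the 18. Over all measured genes of the 18 clusters 1.92% were higher and 2.9% lower. Ccnd1 was lower in 4 of 17 clusters, with a median log2 ratio of −0.89, and Dusp6 had a median of −0.63 over 14, with none called. Etv4 was higher in 3 of 16, with a median log2 ratio of 0.79.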

How the data were processed

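Single cells of spiny mouse ear wounds were profiled as 10x 3′ libraries. The authors deposited UMI counts per gene and cell, with the cluster and annotated type of every cell, the percent of mitochondrial, haemoglobin and ribosomal UMIs per cell (not used in a comparison), and 1 library name per cell. Cell Ranger 6.1.1 and the mouse builds GRCm38 and mm10 are named in the submitters' processing notes, and spiny mouse reads carry mouse gene symbols. How well each spiny mouse gene maps to them, which filters were applied to cells and how doublets were treated is not stated there, and no doublet caller was run. Gene positions are those of the mouse genes in GENCODE on GRCm38.

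Counts were summed per class and library with pandas 2.3.3 on Python 3.11.15. Log2 ratios used a pseudocount of 1 UMI, and their 95% intervals are exact conditional binomial intervals (scipy 1.17.1). Intervals of shares are Clopper-Pearson, and a count of 0 was set to a floor of 3 UMIs for bounds. A gene was at the level of free RNA in a class if its CPM was below 3 times the lower quartile over the annotated types and more than 10-fold below the highest type. Gene lists were read with 5 or more measured members. The ratio script recovered simulated fold changes in independent Poisson counts drawn from the class sums. Such counts hold no concentration of UMIs in single cells, so the test does not cover that source of spread.

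Genes were named as the 6 highest and 6 lowest per class with at least 100 UMIs (50 where a library had under 100 cells of the class), leaving out gene models and free RNA, as up to 4 abundant members of each list that fits the class, and as Erbb2, Erbb3, Egfr, Nrg1, Dusp6, Spry2, Etv4, Ccnd1 and Mki67. Of these the text gives those that carry a comparison. Other genes were chosen after their values were seen. The members and lists were chosen with earlier results of these data known. Alternatives were another pseudocount, count filters, median centring and TMM scaling (edgeR 4.0.16 on R 4.3.3, used for scaling only), thinning to 1000 UMIs, means over cells, leaving out the deepest 5% of cells, cells led by their own markers, the DMSO mix of clusters, a 1.5-fold threshold, other denominators and the subtraction of free RNA.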

Additional observations from a re-analysis of the deposited data

How the results depend on the processing

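Genes at or past 2-fold, summed over the 14 classes, numbered 3830. The sum was 942 with a minimum of 100 UMIs, 35298 with no minimum, 1855 after thinning every cell to 1000 UMIs and 13274 at 1.5-fold. Over the 2 classes with enough cells led by their own markers it was 410 (622 in the same classes with all cells), and over the 11 classes with free RNA subtracted it was 6913 (2852 before). Subtraction, chosen after seeing the data, moved the medians of endothelial identity in cluster 8 to −0.34, cartilage matrix to −0.24, fibrillar matrix in cluster 34 to 0.017, MHC class II in cluster 6 to 0.46 and the T cell receptor complex to −0.14, and turned mitosis in cluster 8 to 0.91. Of 470 list medians under the alternatives, 13 changed sign with the subtraction and 8 with another alternative. Of the values of single genes under the alternatives 214 lay outside the counting interval and 1299 inside. None turned a 2-fold difference to the other direction, but several fell short of 2-fold. Among them were Msmp in cluster 32, at a log2 ratio of −0.37 without the deepest 5% of cells, and Idi1 in chondrocytes, at −0.10 after thinning.

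Log2 share ratios over cells with 1000 or more genes were −2.001 for cluster 7, 1.29 for dendritic cells, 1.15 for hair germ, 0.88 for Unknown (0.45 with 1000 or more UMIs), 0.43 for suprabasal, −0.33 for basal, 0.25 for sebaceous, −0.23 for T-cells, −0.19 for macrophages and −0.18 for ORS cells. Over cells led by their own markers they were 2.78 for endothelium, 1.85 for macrophages, 0.10 for chondrocytes and 0.016 for ORS, which are reversals, and 1.70 for dendritic cells, 1.59 for sebaceous, 0.70 for fibroblasts and −1.05 for cycling basal cells. The cause was not tested. Other denominators moved no share beyond its interval. With 1 library a side, counting error is the only error measured, and classes under 100 cells hold few UMIs per gene. No paired analysis was possible because each treatment was 1 library with no replicate number.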
